A study of Mus musculus with 16 samples.

Results

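The genes that encode the granule proteins of neutrophils were examined in accessible chromatin of mouse hematopoietic stem and progenitor cells (HSPCs). The 10 genes were taken by their products: Mpo, Elane, Prtn3 and Ctsg for primary (azurophil) granules, Ltf, Camp, Lcn2 and Ngp for secondary (specific) granules, and Ms4a3 and S100a8 beside them. Overlapping peaks of 16 libraries (1 bp was enough) were joined into regions, and a region belonged to a gene when it touched the gene body or the 10 kb on either side. This gave 91 regions of 296215 in the series, at 10 of 21938 protein-coding genes. ATAC-seq, which cuts open DNA with a transposase, was run on 50000 HSPCs per library, with 4 libraries for each of 4 genotypes and a pair of age-matched C57BL/6 mice pooled for each library. Every mouse carried Ep300 fl/fl and received poly(I:C). WT was Ep300 fl/fl alone, P300KO was Mx1-Cre Ep300 fl/fl, TET2KO was Ep300 fl/fl Tet2-/-, and P300KO_TET2KO was Mx1-Cre Ep300 fl/fl Tet2-/-. The Mx1 promoter that drives Cre answers to interferon and is not restricted to blood cells.

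Neutrophils build their granules in sequence. Proteins made at the promyelocyte stage, such as myeloperoxidase and the serine proteases, fill the primary granules, and proteins made later, at the myelocyte and metamyelocyte stages, such as lactoferrin, fill the secondary granules. HSPCs lie before both stages, and the transcription factors Spi1 and the Cebp family are known to act on genes of both kinds in the myeloid lineage. The data therefore show how far the chromatin of the 2 kinds of gene was already open in progenitors, and how it stood after loss of the acetyltransferase p300, of the 5-methylcytosine oxidase Tet2, or of both.

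The libraries fell into deposit sets, read from the labels: replicates 1 and 2 of each genotype (set 1, 8 libraries) name a merged peak file and replicates 3 and 4 (set 2, 8 libraries) do not. Lists of set 1 held 86039 to 110055 peaks and lists of set 2 held 130610 to 137335. In WT replicate 1 only 45.0% of peaks reached a −log10 q of 2, the lowest value of the series, and in set 2 between 92.2% and 97.4% did. The lists hold no read counts, so depth per library is unknown, and where no peak is listed accessibility may be below what that library could detect. Starts of 7 of 8 stem and progenitor marker genes, Kit, Cd34 and Flt3 among them, had a peak in 16 of 16 libraries. Of 4 mature neutrophil markers, the start of Csf3r had one in 16 libraries, Cxcr2 in 14, Il1b in 3 and Ly6g in 0. Strength is given below as a percentile: the place of a peak in its own library's list by the −log10 p of the peak caller, with 100 for the strongest. Percentiles are compared across libraries as places in a list, not as amounts of signal.

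Regions at primary granule genes were found in more libraries than regions at secondary granule genes. Of the 39 regions in the windows of the 4 primary granule genes, 17 (43.6%) had a peak in 16 of 16 libraries and 7 (17.9%) in a single library. Of the 37 regions in the windows of the 4 secondary granule genes, 5 (13.5%) had a peak in 16 of 16 and 16 (43.2%) in a single library. Over all regions of the series the shares were 13.3% and 45.6%, so that the secondary granule genes were near the share of all regions and the primary granule genes above it. In bulk libraries, a smaller share of cells with an open site and a less open site in each cell cannot be told apart. Elane and Prtn3 are neighbours on chromosome 10, and 11 regions lay in the windows of both. Windows also take in neighbouring genes. Of the primary granule regions in 16 of 16 libraries, some lay at starts of Plppr3 or Gm19810, in Cfd or in Lpo. Those of the Lcn2 window lay at starts of other genes. Over all 10 genes, 22 regions (24.2%) had a peak in 16 of 16 libraries and 26 (28.6%) in 1.

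**Figure D1:**
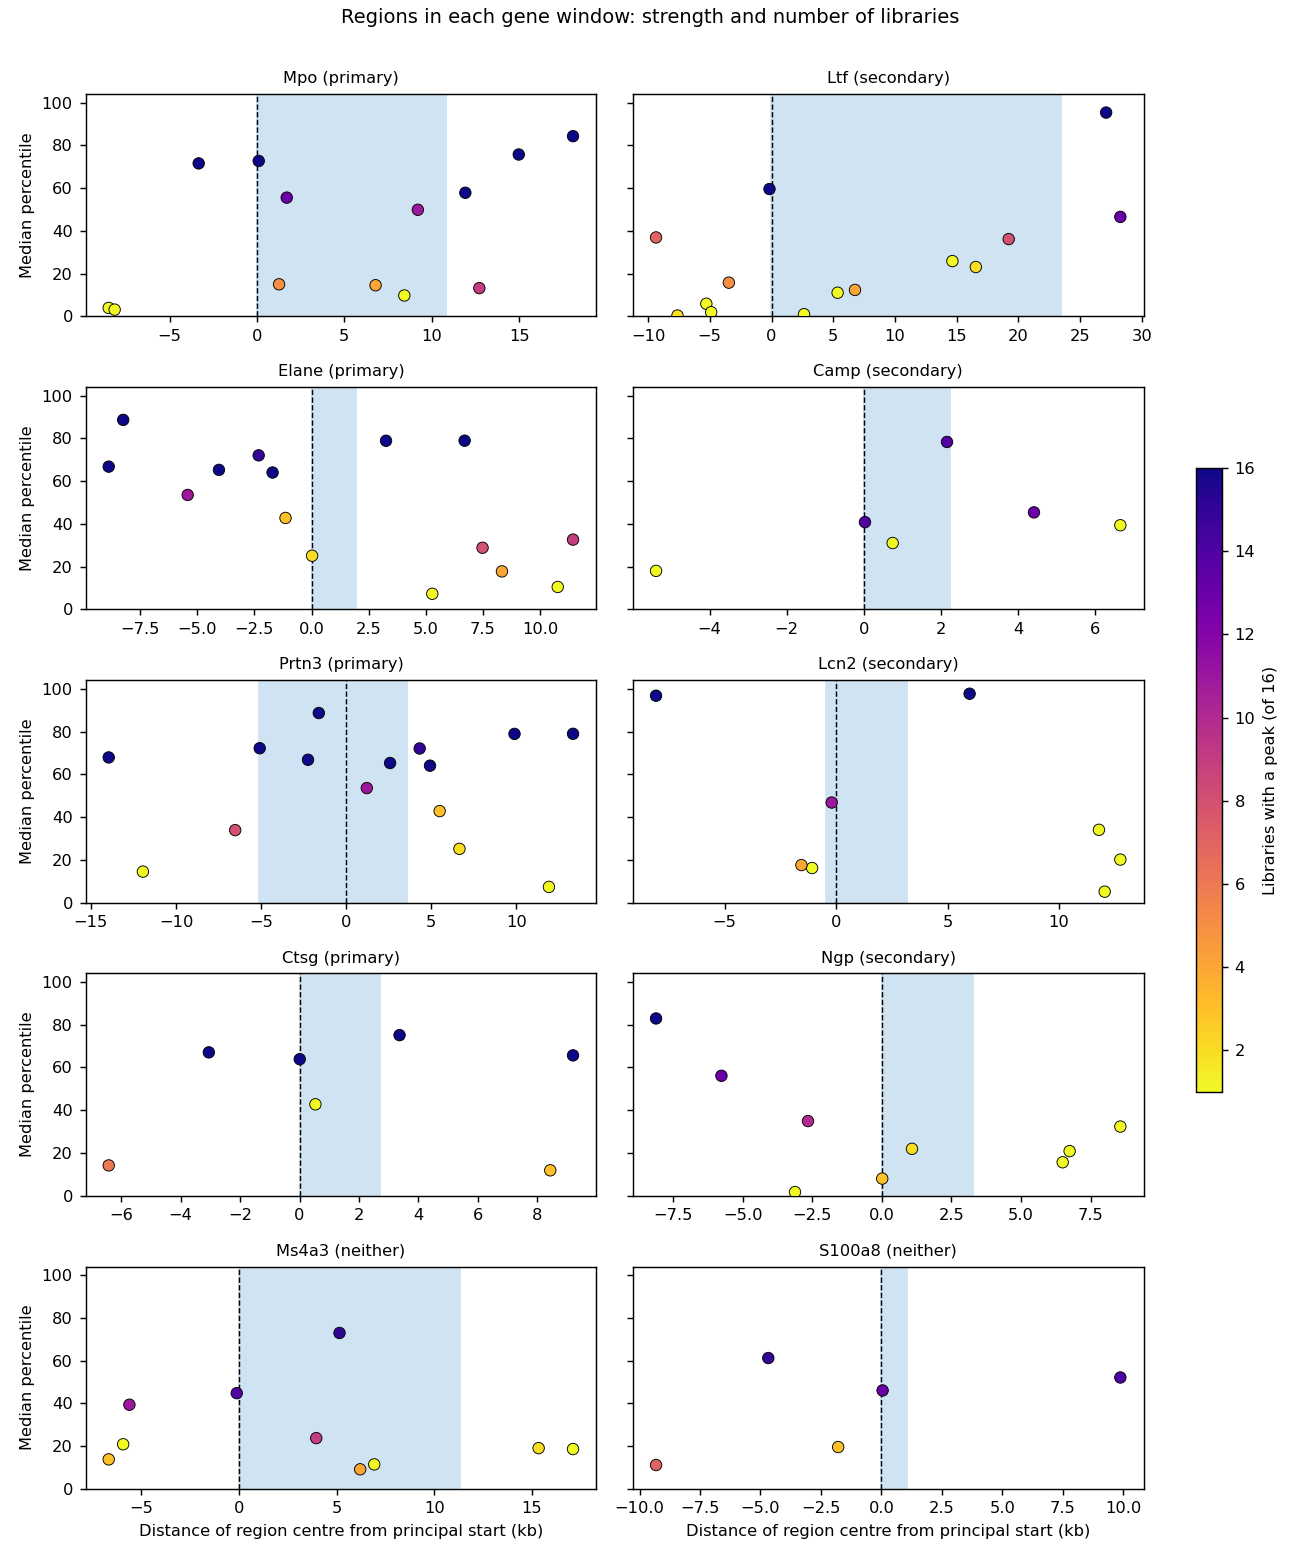
Regions in the window of each gene. The x axis gives the distance of the region's centre from the principal start in kb, along the direction of the gene, the y axis the median percentile over the libraries with a peak, and the colour the number of libraries with a peak (of 16). The blue band is the gene body and the dashed line the start. At Mpo, Elane, Prtn3 and Ctsg the strong regions seen in 16 of 16 libraries lie on both sides of the gene, whereas at Ltf the strongest one lies downstream of the gene at 27.1 kb and at Lcn2 both lie at starts of neighbouring genes.

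The principal start of a gene was taken from GENCODE M21 (mm10), and a start peak lay within 1 kb of it. A start peak in every library was less common among the granule genes than among all genes. Of 21938 protein-coding genes, 13275 (60.5%) had a start peak in 16 of 16 libraries, with a median percentile of 93.8, and 5119 (23.3%) had one in 0. Of the 10 granule genes, Mpo, Ctsg and Ltf had a start peak in 16 of 16 libraries, with median percentiles of 72.7, 63.9 and 59.5. Camp and Ms4a3 had one in 14, S100a8 in 13, Lcn2 in 11, Ngp in 5, Elane in 2 and Prtn3 in 0.

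**Figure D2:**
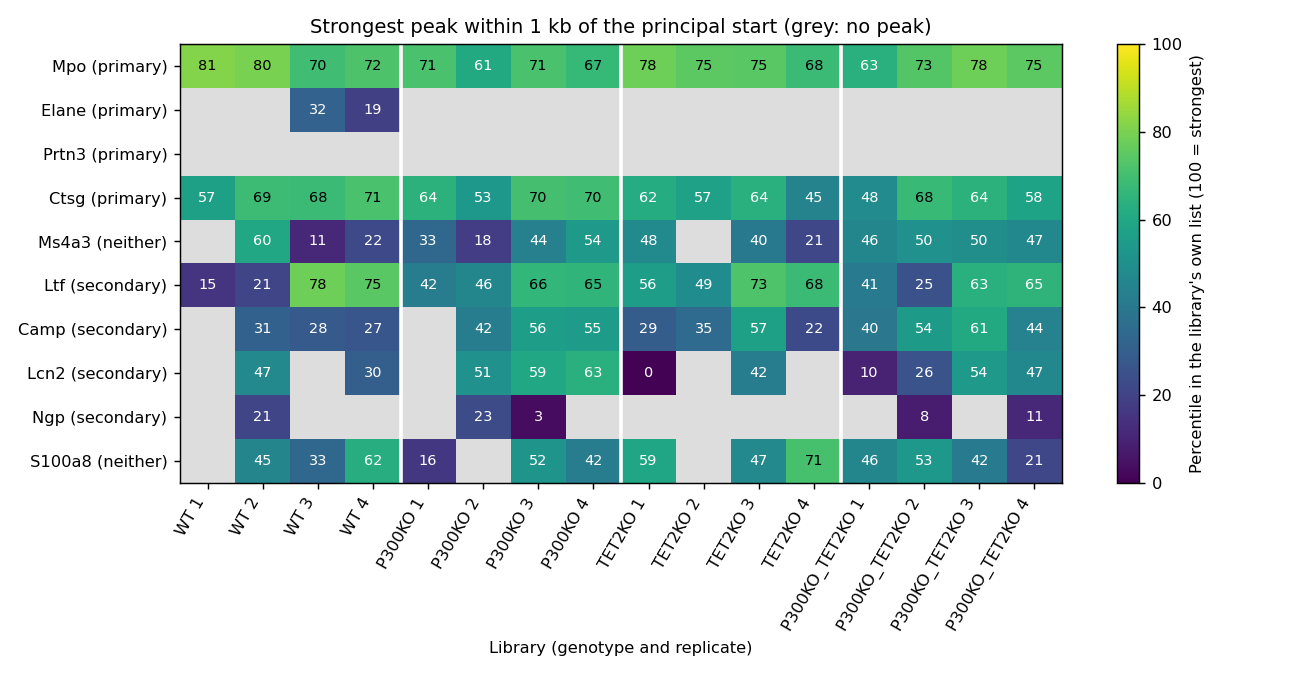
Percentile of the strongest peak within 1 kb of the principal start, for 10 genes (rows) in 16 libraries (columns, grouped by genotype), with 100 for the strongest peak of a library and grey where there was no peak. Mpo and Ctsg are present in every library, Elane only in WT replicates 3 and 4, and Prtn3 in none.

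Among the 8 primary and secondary granule genes, the letters before the starts differed by granule, for strings chosen after values were seen. In the 200 bases upstream of the principal start, GAGGAAGT, a string of the type bound by Spi1, was found on either strand at 3 of 4 primary granule genes and at 0 of 4 secondary granule genes, against 2.03% of 21938 protein-coding genes. TTGCNNAA, a string of the type bound by Cebp factors, was found at 4 of 4 secondary granule genes and at 0 of 4 primary granule genes, against 6.8% of all. The sites are shown because they sort the 8 genes by granule with the exception of Ctsg, which had neither string. Each line gives 30 bases of the RefSeq GRCm38.p6 genome along the strand of the gene, with the matched string in capitals.
Mpo, 21 bases before the start, chr11:87793549-87793578: gtggagagagaGAGGAAGTtgcctttgtcc
Elane, 20 bases before the start, chr10:79886216-79886245: cgtgtcccaggGAGGAAGTagggctgtggc
Prtn3, 42 bases before the start, chr10:79879561-79879590: caaactggaagGAGGAAGTgggacccacag
Ltf, 75 bases before the start, chr9:111019206-111019235: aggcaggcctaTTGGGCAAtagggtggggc
Camp, 105 bases before the start, chr9:109849704-109849733: gttttaccccgTTGAGCAAtactggatatg
Lcn2, 158 bases before the start, chr2:32387937-32387966: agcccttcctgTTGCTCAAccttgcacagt
Ngp, 77 bases before the start, chr9:110419659-110419688: gtcctggtttaTTGCCCAAacctccttgcc

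The primary granule sites lay 20 to 42 bases before the start and the secondary granule sites 75 to 158 bases before it. At Lcn2 the 200 bases before the principal start lie within the annotated gene body, and 147 of them overlap an annotated exon. At Ltf 21 of them do. S100a8 had the Spi1 string, reversed, 79 bases before its start, and Ms4a3 had neither. With 100 bases upstream the counts were 3 of 4 primary genes for the Spi1 string and 2 of 4 secondary genes for the Cebp string (1.15% and 2.89% of all genes), and with 1000 bases they were 3 of 4 and 4 of 4 (6.29% and 34.6% of all genes), with 0 of 4 genes of the other kind at either length. Other genes of the same granules, listed from general knowledge, did not divide in this way: the Cebp string stood at 2 of 9 other secondary granule genes (Mmp8 and Fcnb), the Spi1 string at 2 of those 9 (Itgb2l and Olfm4), and at 6 other primary granule genes the counts were 0 for Cebp and 1 (Ctsc) for Spi1. The string for Myb, AACGG, was found before Camp, where it overlapped the Cebp string, and before Ngp, against 12.9% of all genes. The string for Runx, TGTGGT, was found before Mpo and Ctsg, against 10.3%. AGATAA, the string used for the Gata factors, was found before Mpo and Ltf, against 6.69%. A string is a description of sequence and not a site of binding.

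Mpo encodes myeloperoxidase, the peroxidase that makes hypochlorous acid. Its start peak (chr11:87793146-87794211) had percentiles of 81.3, 79.9, 69.5 and 72.2 in WT, 71.4, 60.7, 71.3 and 67.1 in P300KO, 77.9, 74.9, 74.6 and 68.0 in TET2KO, and 63.4, 73.2, 77.8 and 74.8 in P300KO_TET2KO. The genotypes overlapped, and the median fold enrichment over the local background was 6.02. The Mpo window held 4 more regions with a peak in 16 of 16 libraries. They lay 3.3 kb upstream and 11.9, 15.0 and 18.1 kb downstream of the start, the last 2 in introns of Lpo, the neighbouring peroxidase gene. The region at 18.1 kb (chr11:87811332-87811990) was the strongest of the window, with a median percentile of 84.3 and a range of 76.5 to 88.4. The 200 bases before the Mpo start are given because they hold 3 of the searched strings, shown in capitals, with that of Runx (reversed) first, then that of Gata, then that of Spi1.
Mpo, chr11:87793381-87793580, plus strand: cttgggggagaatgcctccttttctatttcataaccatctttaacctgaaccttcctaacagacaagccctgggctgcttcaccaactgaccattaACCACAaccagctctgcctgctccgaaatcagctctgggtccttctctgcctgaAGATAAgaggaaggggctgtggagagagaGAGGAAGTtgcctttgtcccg

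Elane and Prtn3 encode neutrophil elastase and proteinase 3. Their starts had a peak in fewer libraries than those of the other 8 genes, while their windows held the most regions. The Elane start had a peak in WT replicate 3 (percentile 31.5) and WT replicate 4 (18.8) and in 0 of the other 14 libraries. No peak lay within 1 kb of the principal start of Prtn3. GENCODE also lists an earlier Prtn3 start, shared with the start of Plppr3, where a region (chr10:79874217-79874851) had a peak in 16 of 16 libraries with percentiles of 64.8 to 77.9. Regions centred 1214 and 2582 bases after the principal start each lay within 1 kb of another listed Prtn3 start. They had a peak in 11 and 16 libraries, with median percentiles of 53.6 and 65.3. The strongest region of both windows (chr10:79877654-79878361) lay in an intron of the longer Prtn3 transcript, 1.6 kb before the principal start. Its percentile ran from 81.3 to 92.0, with a median of 88.7 and a median fold enrichment of 6.66. A region 1.7 kb before Elane (chr10:79884238-79884849) was also in 16 of 16, with percentiles of 57.2 to 75.6. Regions 3.3 and 6.7 kb after the Elane start, the latter in Cfd, had median percentiles of 78.9 and 79.0.

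The summit of the region before Elane is shown because it was one of the 2 summits, of 22 in the windows, that held the Cebp string (5.88% of the 39310 summits of regions found in 16 of 16 libraries). The other lay 3.0 kb before Ctsg, and both also held the Runx string. The Runx string stood in 8 of the 22 summits, against 18.7% of all. Each line holds 151 bases around the median summit, along the strand of the gene.
Elane, chr10:79884622-79884772: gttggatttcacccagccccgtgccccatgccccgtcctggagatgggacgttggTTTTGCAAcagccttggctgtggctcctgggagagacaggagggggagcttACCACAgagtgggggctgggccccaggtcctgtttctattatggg
Ctsg, chr14:56105537-56105687, minus strand: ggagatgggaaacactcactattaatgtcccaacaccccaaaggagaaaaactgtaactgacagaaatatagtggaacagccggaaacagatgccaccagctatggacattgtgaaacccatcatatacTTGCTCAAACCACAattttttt

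Ctsg encodes cathepsin G, the third serine protease of the primary granule. Its start peak (chr14:56102353-56102778) had percentiles of 56.9, 68.6, 68.0 and 71.3 in WT, 64.3, 53.2, 70.5 and 69.5 in P300KO, 62.0, 57.3, 63.6 and 44.6 in TET2KO, and 48.3, 67.5, 64.1 and 58.1 in P300KO_TET2KO. The groups overlapped. Regions 3.0 kb before the start and 3.4 and 9.2 kb after it had a peak in 16 of 16 libraries, with median percentiles of 67.1, 75.1 and 65.6. Ms4a3, a membrane protein of granulocyte precursors, had its strongest region 5.2 kb into the gene (chr19:11635284-11636083), with a peak in 15 of 16 libraries and a median percentile of 72.9. Its start peak was weaker, with a median of 44.7 over 14 libraries.

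Ltf encodes lactoferrin, the iron-binding protein of secondary granules, and held the strongest region outside the starts of neighbouring genes. This region (chr9:111045999-111046795) lay 27.1 kb from the start, past the end of the gene and in no other gene. It had percentiles of 90.7 to 97.4 in 16 of 16 libraries, with a median of 95.3 and a median fold enrichment of 21.8. Its summit is shown because it carried the Spi1 string at 2 places, and 1 further summit of the 22 carried it, that of the Mpo start (6.8% of all summits).
Ltf, chr9:111046341-111046491, plus strand: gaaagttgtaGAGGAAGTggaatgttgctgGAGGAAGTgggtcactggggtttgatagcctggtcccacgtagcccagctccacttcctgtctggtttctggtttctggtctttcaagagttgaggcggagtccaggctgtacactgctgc

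The Ltf start peak (chr9:111018714-111019544) had percentiles of 15.0, 20.8, 77.9 and 74.6 in WT, 42.5, 45.9, 66.2 and 65.3 in P300KO, 55.7, 48.7, 72.6 and 68.0 in TET2KO, and 40.7, 24.8, 63.4 and 64.9 in P300KO_TET2KO. In each genotype replicates 1 and 2 were low and replicates 3 and 4 high, and the sets did not overlap. The mean was 36.8 ± 14.7 in set 1 and 69.1 ± 5.28 in set 2 (SD, n = 8 each).

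The other secondary granule genes had weak starts and stronger regions away from them. Camp encodes the cathelicidin peptide. Its start peak had percentiles of 31.1, 28.4 and 26.7 in 3 WT libraries, 42.1, 56.0 and 55.4 in 3 P300KO libraries, 29.3, 34.9, 56.9 and 22.3 in TET2KO, and 39.5, 54.5, 60.8 and 44.3 in P300KO_TET2KO, with no peak in WT replicate 1 and P300KO replicate 1. A region over the end of the gene (chr9:109847157-109847757) had a peak in 14 libraries with a median percentile of 78.4. Its percentile there was 47.4 to 74.3 in the 6 libraries of set 1 that had it and 78.3 to 84.7 in set 2. Ngp encodes neutrophilic granule protein, a relative of the cathelicidins. Its start had a peak in 5 libraries at percentiles of 3.3 to 23.0, whereas a region 8.1 kb before it (chr9:110411420-110411838), in no gene, had one in 16 of 16 at 77.6 to 87.3. Lcn2 encodes lipocalin 2, which binds bacterial siderophores. Its start had a peak in 11 libraries, with percentiles from 0.4 to 63.3. Both regions of its window in 16 of 16 libraries lay at the starts of 1110008P14Rik and Ptges2, at median percentiles of 97.7 and 96.8. S100a8, a subunit of the cytosolic protein calprotectin, had a start peak in 13 libraries and a region 4.7 kb before it in 15, with median percentiles of 46.0 and 61.2.

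Whether primary and secondary granule genes separated at their starts depended on which starts and how much sequence around them were counted. Within 1 kb of the principal start they did not separate, and the direction of the difference turned with the deposit set. The mean percentile over 4 genes, with 0 for a missing peak, was 34.3 ± 3.9 for primary and 30.1 ± 12.9 for secondary granule genes (SD over 16 libraries), and the primary genes were higher in 10 of 16 libraries. The difference of 4.2 ± 13.2 was smaller than its spread. It was 10.9 ± 12.8 in set 1, with the primary genes higher in 7 of 8 libraries, and −2.4 ± 10.5 in set 2, with the primary genes higher in 3 of 8. By genotype it was 15.3 ± 11.0 in WT, with the primary genes higher in 4 of 4 libraries, −2.8 ± 17.4 in P300KO, 5.8 ± 10 in TET2KO and −1.3 ± 8.7 in P300KO_TET2KO (SD, n = 4 each). Over the strongest region of each gene's own window, leaving out regions at starts of other genes, the primary genes had 84.4 ± 2.3 and the secondary genes 68.3 ± 8.4, with the primary genes higher in 16 of 16 libraries by 16.1 ± 7.0. This gap rested on Lcn2, which had no such region in 5 libraries (counted as 0) and a mean of 26.8 ± 24.9. Ltf, at 94.6 ± 2.1, had a higher mean than every primary gene, Ngp had 82.7 ± 3.2 and Camp 69.2 ± 15.2. Without Lcn2 the secondary genes had 82.2 ± 6.3, and the difference was 2.2 ± 5.8, with the primary genes higher in 8 of 16 libraries. That measure was chosen after the values were seen, and Elane and Prtn3 share their strongest region. Within 3 kb of the principal start the difference was 32.8 ± 13.9, with the primary genes higher in 16 of 16 libraries (45.1 in set 1 and 20.4 in set 2). Within 1 kb of any GENCODE start of a gene it was 22.6 ± 13.7, again with 16 of 16 (29.4 and 15.7). Within 1 kb of the principal start it was 16.9 with the strongest 50000 peaks of each list (primary genes higher in 14 of 16 libraries) and −3.0 with peaks ranked by fold enrichment. With the strongest region of each 10 kb window, regions at starts of other genes included, it was −1.7. No test was made of these differences, since genes are not replicates.

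**Figure D3:**
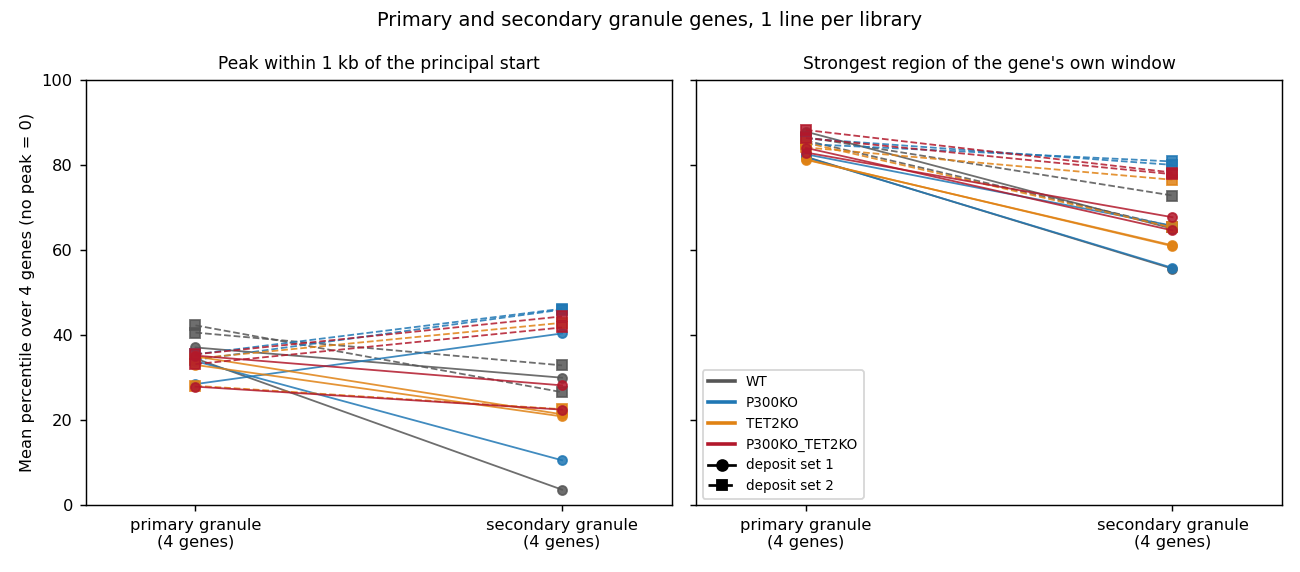
Mean percentile over the 4 primary and the 4 secondary granule genes in each library (1 line per library, coloured by genotype, dashed for deposit set 2), with 0 for a missing peak. Left, the peak within 1 kb of the principal start, where lines cross and 10 of 16 fall from primary to secondary. Right, the strongest region of the gene's own window, where 16 of 16 fall with Lcn2 included (8 of 16 fall without it).

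Other genes of the same granules, from lists made from general knowledge, had start peaks as follows. All 6 other primary granule genes (Prss57, Ctsc, Cst7, Lyz2, Srgn and Bpi) had one in 16 of 16 libraries, with a median percentile of 85.2. Ctsc, the protease that activates the granule serine proteases, was the strongest at 95.6. Of 9 other secondary granule genes only Pglyrp1, a peptidoglycan-binding protein, had a start peak in 16 of 16 libraries, and Lrg1 had one in 0. Mmp8, Hp and Olfm4 had one in 15 libraries, and Chil3 and Cd177 in 2. The median over the 9 genes was 38.5, with Lrg1 at 0 and each other gene at its median over the libraries with a peak. Among tertiary granule and cytosolic genes Mmp9 and Mmp25 had a start peak in 16 libraries, S100a9 in 9 and Retnlg in 0. Elane and Prtn3, with a start peak in 2 and 0 libraries, were the only 2 of the 10 primary granule genes examined without one in 16 of 16.

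Loss of p300 was examined first in Tet2-deficient HSPCs, then in Tet2-intact HSPCs, and then over both backgrounds. None of the 91 regions was found in all 4 libraries of a genotype while missing from the 4 of its comparison. Over all regions this pattern was met by 0.0726% for P300KO_TET2KO against TET2KO, 0.0236% for P300KO against WT, 0.0213% for TET2KO against WT and 0.0959% for P300KO_TET2KO against P300KO. With at least 3 of 4 against at most 1 of 4, 2 of 91 regions (2.2%) passed for P300KO_TET2KO against TET2KO (1.71% of all), 2 (2.2%) for P300KO against WT (1.34%), 1 (1.1%) for TET2KO against WT (1.2%) and 0 for P300KO_TET2KO against P300KO (1.69%). These shares lay near those of all regions. The comparisons share libraries. A region before Prtn3 (chr10:79872996-79873193) passed in both p300 comparisons, with a peak in 1 WT, 3 P300KO, 1 TET2KO and 3 P300KO_TET2KO libraries. A region 1.2 kb after the principal Prtn3 start (chr10:79880633-79881024) had one in 1 WT, 3 P300KO, 3 TET2KO and 4 P300KO_TET2KO libraries, and a region 9.3 kb before S100a8 (chr3:90659359-90659964) in 1, 2, 1 and 3.

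The strength of the 22 regions found in every library was compared by rank. Each region was ranked by −log10 p among the 39310 regions with a peak in 16 of 16 libraries, ranks were turned into normal scores (0 for the middle region, 1 for 1 SD), and limma was fitted to all 39310 regions with the deposit set as a term. No region of the granule genes passed an adjusted p of 0.05 in any of the 6 comparisons. Of all regions 0.178% passed for P300KO_TET2KO against TET2KO, 0.588% for P300KO against WT, 0.0178% for TET2KO against WT, 0.333% for P300KO_TET2KO against P300KO, 2.99% for p300 loss over both Tet2 backgrounds and 1.13% for Tet2 loss over both p300 backgrounds. At an unadjusted p of 0.05, 5 of 22 regions (22.7%) passed for p300 loss, against 17.4% of all regions, and 3 of 22 (13.6%) for Tet2 loss, against 14.2%.

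The lowest adjusted p for p300 loss was at the region 3.3 kb before Mpo. Its percentiles were 69.3, 71.9, 60.2 and 61.8 in WT, 70.9, 71.2, 81.2 and 79.2 in P300KO, 73.5, 60.9, 77.9 and 57.4 in TET2KO, and 69.4, 78.1, 78.4 and 74.6 in P300KO_TET2KO. The p300-deficient libraries were the higher ones in replicates 3 and 4, and the groups overlapped. Its normal score was higher by 0.501 with p300 lost (SE 0.163, limma adjusted p = 0.0952). The region 2.2 kb before the principal Prtn3 start (chr10:79877213-79877535) had percentiles of 34.7, 76.0, 59.4 and 66.1 in WT, 76.9, 76.1, 67.5 and 72.1 in P300KO, 55.4, 56.8, 67.8 and 60.5 in TET2KO, and 73.4, 76.0, 63.9 and 64.0 in P300KO_TET2KO. Its lowest value was that of WT replicate 1. Its normal score was higher by 0.486 (SE 0.162, limma adjusted p = 0.105), and the region at the earlier Prtn3 start differed by −0.285 (SE 0.109, adjusted p = 0.165). None of these passed, and 1 library decided the side of the threshold for the first 2. Without WT replicate 1 the Mpo region was higher by 0.554 (limma adjusted p = 0.0441, with 4.69% of all regions called and 1.85% called higher), and without WT replicate 2 the Prtn3 region was higher by 0.57 (limma adjusted p = 0.0447, with 4.11% called and 1.82% higher). Within deposit set 2 alone, 3 regions passed, all higher with p300 lost: 3.3 kb before Mpo (0.81, limma adjusted p = 0.00775), 1.7 kb before Elane (0.655, adjusted p = 0.0151) and 11.9 kb after the Mpo start (0.587, adjusted p = 0.0323). These 3 of 22 (13.6%) stand beside 7.82% of all regions called in that fit, and 3.2% called higher. For P300KO against WT in set 2 alone, 1 of 22 (4.55%) passed, the region before Mpo, beside 2.81% of all regions called and 0.873% called higher. Within set 1 alone 0 passed, and for p300 loss the region 3.3 kb before Mpo differed by 0.192 there. The region 1.7 kb before Elane differed by −0.089 in set 1. For the region 11.9 kb after the Mpo start, the difference in set 2 minus that in set 1 was 0.443. A test of the difference between the sets called 0 of 22 of these regions and 0.0% of all regions. At an unadjusted p of 0.05, 3 of the 22 (13.6%) passed, against 7.01% of all: 9.2 kb after the Ctsg start, the Mpo start and 1.7 kb before Elane. Their p300 differences were higher in set 2 than in set 1 by 0.816, 0.651 and 0.744. Over all 16 libraries the Ctsg region differed by −0.033 and the Mpo start by −0.208. Both were lower with p300 lost in set 1 and higher in set 2.

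With Tet2 lost, the normal score of the Ltf start region differed by −0.603 between P300KO_TET2KO and TET2KO (SE 0.272, limma adjusted p = 0.562), which did not pass. For Tet2 loss the lowest adjusted p was at Ctsg. The region 3.0 kb before its start differed by −0.402 (SE 0.172, limma adjusted p = 0.288) and the start region by −0.376 (SE 0.169, adjusted p = 0.312), both lower with Tet2 lost and neither past the threshold. A test of whether the effect of p300 loss differed between Tet2-deficient and Tet2-intact HSPCs called 0 of 22 regions and 0.0% of all regions, with 0 of the 22 at an unadjusted p of 0.05, against 5.2% of all.

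**Figure D4:**
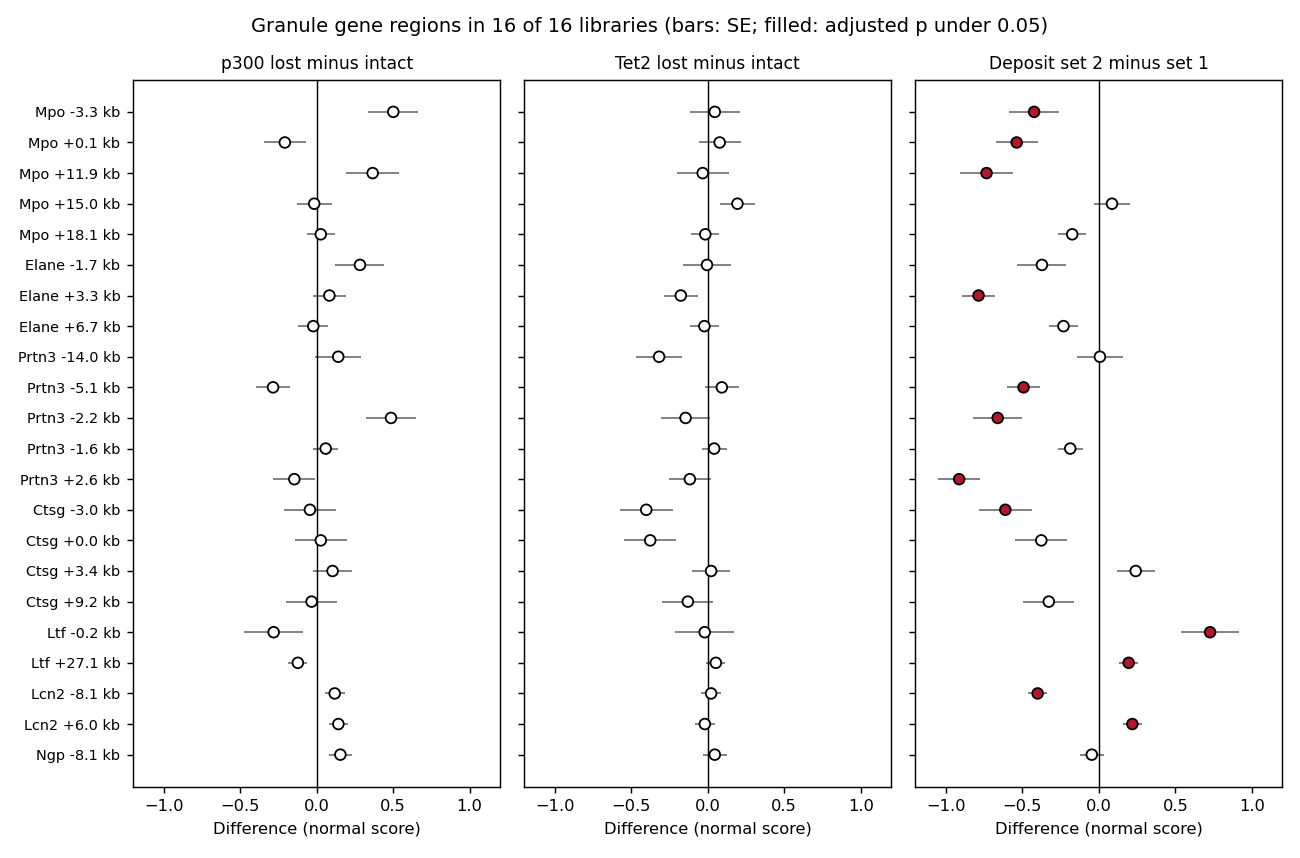
Differences in normal score, with SE from limma (n = 16 libraries), for the 22 regions of the granule genes found in 16 of 16 libraries, labelled by gene and distance from the principal start. Panels give p300 lost minus intact, Tet2 lost minus intact, and deposit set 2 minus set 1, with filled points for an adjusted p under 0.05. Filled points appear only in the panel on deposit sets, 12 of 22, where most primary granule regions lie left of 0 and the Ltf start lies to the right at 0.727.

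The number of regions with a peak in a gene window was compared by exact permutation of genotype labels within deposit set and background (two-sided, smallest possible p 0.00154). Elane had 6, 7, 10 and 11 regions in WT, 9, 8, 11 and 12 in P300KO, 9, 8, 10 and 9 in TET2KO, and 8, 8, 12 and 12 in P300KO_TET2KO. The mean was 10 with p300 lost and 8.75 with p300 intact, a difference of 1.25 (exact permutation p = 0.037, adjusted p = 1.0 over 21938 genes). Prtn3, which shares 11 of these regions, had a mean of 11.12 against 10, a difference of 1.12 (exact permutation p = 0.0278, adjusted p = 1.0). The other 8 genes did not reach an unadjusted p of 0.05. Of all genes 0.0% passed the adjusted threshold in either comparison, and 4.11% passed an unadjusted p of 0.05 for p300 loss and 3.49% for Tet2 loss, where 0 of the 10 granule genes did. With peaks at a −log10 q of at least 2, 3 of the 10 did for Tet2 loss (Mpo, Ltf and S100a8, all higher with Tet2 lost, smallest exact permutation p 0.0154, adjusted p = 0.646), against 6.46% of all genes in either direction and 6.35% higher. With that filter the median difference over all genes was 0.25 regions, against 0.0 without it. In set 1 the share of peaks that reached this q was 45.0% to 80.6% with Tet2 intact. With Tet2 lost it was 80.7% to 93.4%. The part of this share in the counts was not tested. The numbers followed the deposit set as well: Elane had 7.88 ± 0.99 regions in set 1 and 10.88 ± 1.13 in set 2, and Ltf 3.25 ± 1.28 and 6.5 ± 1.31 (SD, n = 8 each). With the strongest 50000 peaks of each list, the permutation p was 0.13 for Elane and 0.0833 for Prtn3.

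**Figure D5:**
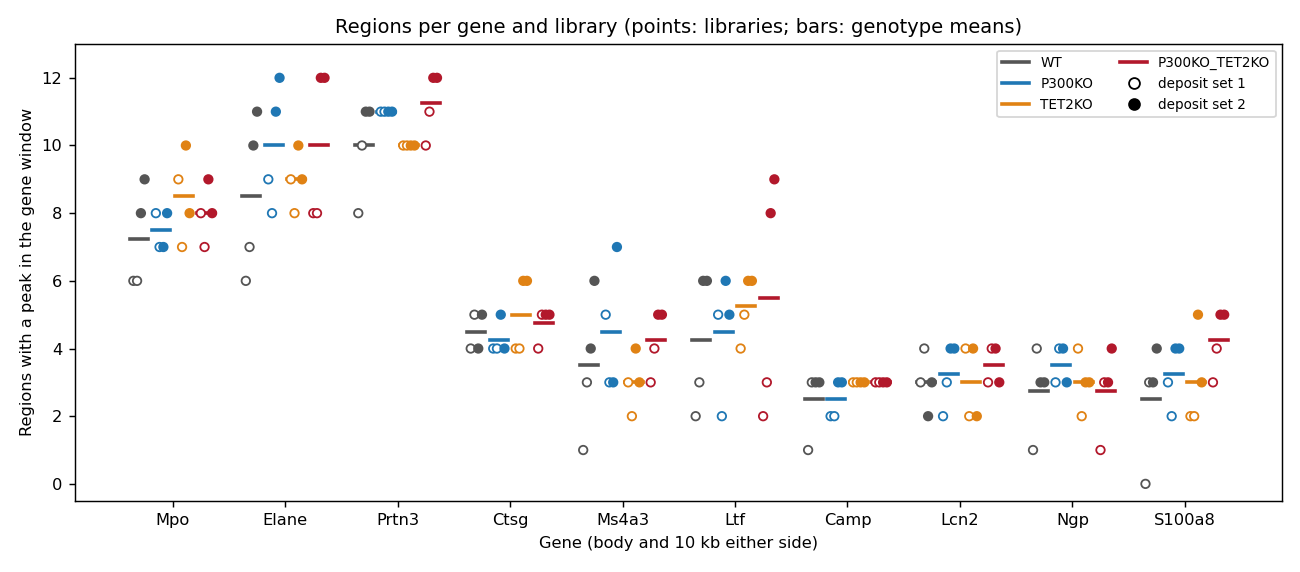
Number of regions with a peak in the window of each gene (body and 10 kb either side), 1 point per library, open for deposit set 1 and filled for set 2, with a bar at the mean of each genotype (n = 4). Elane (6 to 12) and Prtn3 (8 to 12) have the most regions, the lowest single count is that of S100a8 (0 in WT replicate 1), and filled points mostly lie above open ones at Elane and Ltf.

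Between the deposit sets more of these regions passed the test than between genotypes. In the same limma fit, 12 of 22 regions (54.5%) differed between the sets at an adjusted p of 0.05, against 36.0% of all regions. This comparison was added after the values were seen. Of the 17 regions in windows of primary granule genes, 8 were lower in set 2 and 0 higher, whereas of all regions 18.2% were lower and 17.7% higher. They included the Mpo start (−0.537, SE 0.138, limma adjusted p = 0.00438) and the region 3.3 kb after Elane (−0.786, SE 0.11, adjusted p = 1.88e-05). The latter lies within 1 kb of a start of Gm19810. Of the 5 regions in windows of secondary granule genes, 3 were higher and 1 lower. The Ltf start was higher in set 2 by 0.727 (SE 0.192, limma adjusted p = 0.00543) and the region 27.1 kb from it by 0.195 (SE 0.063, adjusted p = 0.0195), and the other 2 lay at starts of Ptges2 and 1110008P14Rik. Normal scores rank the same regions in every library, so that the length of a list does not enter them directly.

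Start percentiles of other granule genes and of cell markers are given beside this, without a test. Summed start percentiles of the 6 other primary granule genes ran from 386 to 502 in set 1 and from 512 to 529 in set 2, and those of the 9 other secondary granule genes from 126 to 262 and from 295 to 335, so that these 2 sums were higher in set 2 without overlap. Single genes did not all follow the sums. The mean of Srgn was lower in set 2, Chil3 and Cd177 had start peaks in set 1 only, and Lrg1 had none. The means of the other genes were higher in set 2. For the 4 tertiary granule and cytosolic genes the sums were 102 to 165 in set 1 and 127 to 159 in set 2, which lay within the range of set 1. Summed start percentiles of 4 mature neutrophil markers ran from 78.9 to 132 in set 1 and from 123 to 170 in set 2. For 3 T cell markers the sums ran from 0.0 to 21.1 in set 1 and from 34.4 to 120 in set 2, and for 3 B cell markers from 0.0 to 52.1 and from 49.7 to 81.4. Sums of 3 monocyte and macrophage markers ran from 116 to 226 and from 211 to 241, and those of 3 erythroid markers from 158 to 218 and from 195 to 232. Sums of 8 stem and progenitor markers ran from 632 to 689 and from 670 to 690. Of these marker lists the sets did not overlap for T cells and overlapped for the others. Set 2 lists were longer, which raises the place of a fixed peak in its list, and the part of list length, cell composition or any other difference between the sets in these values was not tested.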

How the data were processed

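Narrow peak lists of 16 ATAC-seq libraries were used. Per the labels and methods, the authors trimmed reads with cutadapt 1.9.1, aligned them to mm10 with Bowtie2 2.2.6, removed duplicates, shifted reads for the transposase and called peaks per library with MACS2 2.1.0. Values deposited per summit were the fold enrichment (a ratio over local background) and, from the authors' peak caller, −log10 p, which starts at 2.0, and −log10 q. Nothing in the sources used here states what differed between the deposit sets. Summits of 1 interval were counted as 1 peak. GENCODE M21 gave genes, and APPRIS principal transcripts gave starts. Sequences came from the RefSeq GRCm38.p6 genome, the same assembly as mm10, and strings were searched on both strands.

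The members and gene lists were chosen with earlier results of these data known. Named regions were the start region, the region with the highest mean percentile away from starts, and those in a test or presence rule. Other regions and all strings were named after their values were seen. Ranks were tested with limma 3.58.1 in R 4.3.3, and Benjamini-Hochberg adjustment covered all regions or genes. Each library pools a pair of mice, and since nothing states which pools were independent, p-values measure the spread between these libraries, which may in part be technical. The set comparison and the tests of differences between effects were added after the data were seen. The rank fit was also run on simulated scores with shifts planted in P300KO_TET2KO, and its outcome is not given here. Alternatives are given in the closing section. Python 3.11.15, pandas 2.3.3, numpy 2.4.6 and matplotlib 3.10.9 served for the rest.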

Additional observations from a re-analysis of the deposited data

Results flagged for a closer look

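In each genotype the 4 libraries were examined for one that lay far from the other 3, for start percentiles, numbers of regions and the difference between primary and secondary granule genes. Of 84 groups 8 held such a library, and chance gives about 1 in 20 for continuous values. Most of these groups hold ties (missing peaks set to 0, or whole counts of regions), for which that rate was not tested. The 84 include groups with 4 identical values, such as those of the Prtn3 start, which could not be flagged. WT replicate 1, the library with the lowest share of peaks at a −log10 q of 2, had no Camp start peak (0.0, with the other WT libraries at 26.7 to 31.1) and 1 region in the Camp window (1.0, with the others at 3.0). The Lcn2 start percentile was 41.9 in TET2KO replicate 3 and at most 0.4 in the other TET2KO libraries. The Ngp start percentile was 20.8 in WT replicate 2, with no peak in the other WT libraries, and 23.0 in P300KO replicate 2, with at most 3.3 in the others. Ctsg had 5.0 regions in P300KO replicate 3 and 4.0 in the others, and 4.0 in P300KO_TET2KO replicate 1 and 5.0 in the others. The start percentile of primary minus secondary granule genes was 23.3 in P300KO replicate 1 and −11.9 to −10.7 in the other P300KO libraries, with no Camp, Lcn2 or Ngp start peak in that library.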

How the results depend on the processing

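The number of granule regions or genes called was 0 in every main comparison and stayed 0 in 63 of 68 alternative settings and in 158 of 160 settings that left out 1 library. With deposit set 2 alone it was 1 for P300KO against WT and 3 for p300 loss over both Tet2 backgrounds (4.55% and 13.6% of 22, beside 2.81% and 7.82% of all regions), and with presence in at least 3 of 4 against at most 1 of 4 it was 2, 2 and 1 as given above. Leaving out 1 library gave 0 to 1 for p300 loss (1 without WT replicate 1 and 1 without WT replicate 2) and 0 in the other comparisons. Primary minus secondary granule genes, 4.2 over starts, was 32.8 within 3 kb, 22.6 with every GENCODE start, −3.0 by fold enrichment and −1.7 with the strongest region of the 10 kb window, and 2.5 to 5.3 with 1 library left out. Over the strongest region of the own window it was 16.1, and 2.2 without Lcn2. The GENCODE starts, the window measures, leaving out Lcn2 and leaving out libraries from this difference were chosen after the data were seen. Among the regions and counts followed through every setting for p300 or Tet2 loss, a pair of single values turned direction. The region 1.7 kb before Elane was −0.089 in set 1 alone, and the Elane region count was −0.25 over the gene body alone. The Mpo start and the region 9.2 kb after the Ctsg start were not followed in this way. Their p300 differences also turned direction between the deposit sets. Region counts of other granule genes, none past an unadjusted p of 0.05 for p300 loss with all 16 libraries, also changed sign, such as Ms4a3 (1.12, and −0.12 with the strongest 50000 peaks). The cause was not tested.

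Over all regions the calls for p300 loss in Tet2-deficient and in Tet2-intact HSPCs, for Tet2 loss in p300-intact and in p300-deficient HSPCs, and for p300 loss and Tet2 loss over both backgrounds were 70, 231, 7, 131, 1177 and 446. They were 9, 1, 0, 28, 201 and 102 without the set term, 137, 6, 0, 85, 792 and 178 by fold enrichment, 112, 162, 14, 230, 1851 and 855 with regions in at least 12 of 16 libraries (73277 tested, 34 at granule genes), 0, 0, 7, 3, 0 and 35 in set 1 alone and 673, 1105, 12, 365, 3073 and 479 in set 2 alone. With 1 library left out they ranged over 17 to 241, 83 to 446, 0 to 15, 59 to 316, 668 to 1845 and 266 to 669, and each highest count came without WT replicate 1 (for the third, tied with TET2KO replicate 4). The lowest came without P300KO_TET2KO replicate 1 for the first and last, P300KO replicate 4 for the second and the fourth, TET2KO replicate 4 for the fifth, and any of 5 libraries for the third. Presence in 4 of 4 against 0 of 4, met by 215, 70, 63 and 284 regions, was met by 243, 188, 96 and 249 among the strongest 50000 peaks. With 1 library left out, which loosens the rule to 3 of 3, it was met by 297 to 675, 143 to 414, 129 to 336 and 391 to 648, highest without P300KO_TET2KO replicate 1, P300KO replicate 2, WT replicate 1 and P300KO replicate 2, and by 0 granule regions. Same-numbered libraries correlated by 0.167 to 0.489 in their deviations from genotype means, and by −0.121 to 0.053 once set means were removed, so that the numbers shared the deposit set alone. With the replicate block, 0 granule regions were called and the calls over all regions were 50, 154, 3, 116, 1023 and 364. With the block the numbers of regions gave 0 called genes, and the permutation p was 0.0781 for Elane and 0.0625 for Prtn3. The depth of each library is unknown, so a missing peak at Elane, Prtn3 or Ngp starts may lie below detection.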
